A study of Mus musculus with 9 samples.

Results

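Mature miRNAs in the livers of male C57BL/6 mice given thioacetamide (TAA) for 8 weeks were compared with those of mice given saline over the same 8 weeks. The comparison used 6 of the 9 small RNA samples of the series. The TAA group (n = 3) received repeated intraperitoneal injections of TAA, which is converted by hepatocytes to reactive metabolites and produces centrilobular injury and then fibrosis. The control group (n = 3) received normal saline in place of TAA, and mice of both groups were 8 weeks old at the start and were killed at the same interval after the last injection. Each sample was a different mouse, so the p-values measure the spread between mice. The remaining 3 samples, from mice left to recover for 8 further weeks, entered no test here. The count table held 1140 rows, of which 1106 were named for known mature miRNAs and the rest were predicted miRNAs. Of all rows 420 passed the filter on low counts and were tested, among them 2 predicted ones.

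A miRNA is cut from a hairpin as a duplex of about the length of a small interfering RNA, and 1 strand of the duplex, from the 5p or the 3p arm, is retained by Argonaute. Bases 2 to 8 of the retained strand form the seed, which pairs with target mRNAs, so miRNAs with a common seed are grouped as a family. Many hairpins are transcribed as clusters in 1 primary transcript. Several miRNAs are also restricted to particular cells: miR-122 to hepatocytes, miR-200 and miR-183 clusters to epithelia such as bile ducts, miR-199a and miR-214 to mesenchymal cells such as stellate cells, miR-223 to myeloid cells, and miR-1 and miR-133 to striated muscle. In whole liver, fewer cells of a type and less miRNA per cell cannot be told apart.

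The sequences below are those on which the results turn, and they were taken from the RefSeq annotation of GRCm38.p6, written 5′ to 3′ with the seed in capitals. The first is the row with the highest fold change among the abundant up-regulated rows, followed by 3 products of hairpins on chromosome 12.
miR-218-5p: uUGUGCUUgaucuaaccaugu
miR-127-3p: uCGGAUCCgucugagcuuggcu
miR-434-5p: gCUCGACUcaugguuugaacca
miR-434-3p: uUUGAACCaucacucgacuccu

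The miR-200 family is shown because its members lie in 2 clusters and carry 2 seeds. AAUACUG is shared by miR-200b-3p, miR-200c-3p and miR-429-3p, and AACACUG by miR-200a-3p and miR-141-3p.
miR-200b-3p: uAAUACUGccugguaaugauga
miR-200c-3p: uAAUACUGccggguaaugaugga
miR-429-3p: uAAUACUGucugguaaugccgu
miR-200a-3p: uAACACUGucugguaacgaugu
miR-141-3p: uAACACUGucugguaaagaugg

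The miR-29 family, whose targets include collagen mRNAs, is shown because its 3 members share the seed AGCACCA and had different fold changes. They are followed by rows that, like miR-29c-3p alone in this family, were down-regulated in TAA on both scales.
miR-29a-3p: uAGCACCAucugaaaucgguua
miR-29b-3p: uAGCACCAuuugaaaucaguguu
miR-29c-3p: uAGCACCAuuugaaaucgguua
miR-592-5p: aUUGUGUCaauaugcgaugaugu
miR-871-3p: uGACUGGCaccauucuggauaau

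The last set holds the products of the mesenchymal hairpins miR-199a and miR-214, the p53 target miR-34a, and the miR-181 family, whose 4 members share the seed ACAUUCA.
miR-199a-5p: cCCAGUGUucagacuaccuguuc
miR-199a-3p: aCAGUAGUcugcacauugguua
miR-214-3p: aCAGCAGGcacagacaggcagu
miR-34a-5p: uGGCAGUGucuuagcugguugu
miR-181a-5p: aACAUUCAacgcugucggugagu
miR-181b-5p: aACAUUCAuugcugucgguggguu
miR-181c-5p: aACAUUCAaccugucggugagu
miR-181d-5p: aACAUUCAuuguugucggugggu

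The libraries held 9949711 to 12983378 counts in the control group and 9071847 to 11320110 in the TAA group. The TAA libraries spread their counts over more rows: 780, 819 and 827 rows were expected at the depth of the smallest library (9071847 counts) against 626, 622 and 621 in the control libraries. The effective number of rows, the exponential of the Shannon entropy of the shares, was 13.5, 12.4 and 14.9 in the TAA group and 11.2, 10.8 and 10.9 in the control group. The scale of a fold change matters where so few rows dominate a library, and 2 scales were used. The first divides by library size corrected with trimmed mean of M-values (TMM) factors, which centre the bulk of the rows, and these factors were 0.654 to 0.694 in the control group and 1.43 to 1.52 in the TAA group. The second divides by the library total, as the deposited TPM does. The median log2 fold change over the 420 rows was 0.11 with TMM and 1.23 with library totals, a median shift of 1.12 per row. TPM values below are shares of the library total, scaled as in the deposited table, with no term for length, and are listed for replicates 1 to 3. The species prefix of the miRNA names (mmu-) is left out.

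TAA replicate 3 stood apart from the other 5 libraries in miRNAs of striated muscle, and values without it are given beside the results that it decided. Muscle miRNAs (11 rows with counts) made up 1.5% of its counts, or 137820 counts. The other TAA libraries held 517 and 406 such counts, and the control libraries 1013, 582 and 278, which is 0.0028% to 0.0078% of a library. In the recovery libraries, which are quoted for this list alone, the counts were 166, 470 and 801. miR-1a-3p, the main miRNA of skeletal and heart muscle, had 67184 counts in TAA replicate 3 against 191 and 172 in the other TAA libraries and 488, 276 and 134 in the control libraries. miR-133a-3p, which is transcribed together with miR-1a, had 2281 counts there against 8 and 9 in the other TAA libraries and 14, 9 and 3 in the control libraries. The passenger strand miR-133a-5p (107 counts) and miR-133b-3p (100 counts) were at 0 in all other libraries of both groups.

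The skeletal-muscle miRNA miR-206-3p had 943 counts in TAA replicate 3, 50 in TAA replicate 1, 8 in TAA replicate 2, and 3, 8 and 3 in the control libraries. The pattern of miR-499-5p, which lies in an intron of the slow myosin gene Myh7b, was different. It had 75, 43 and 97 counts in the TAA group and 18, 11 and 2 in the control group, so that all 3 TAA libraries were above all control libraries. Low counts were listed for miR-1a-1-5p (7 in TAA replicate 3, 0 elsewhere), for miR-1a-2-5p and miR-1b-3p (5 in TAA replicate 3, 1 elsewhere), and for the heart miRNA miR-208b-3p (1 in TAA replicate 3, 0 elsewhere). Rows with at least 20 counts that were at least 3-fold above the next highest library numbered 6 in TAA replicate 3, all of them muscle miRNAs, 6 in TAA replicate 1 and 0 in each of the other 4 libraries. How the muscle miRNAs came into this library was not tested.

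**Figure D1:**
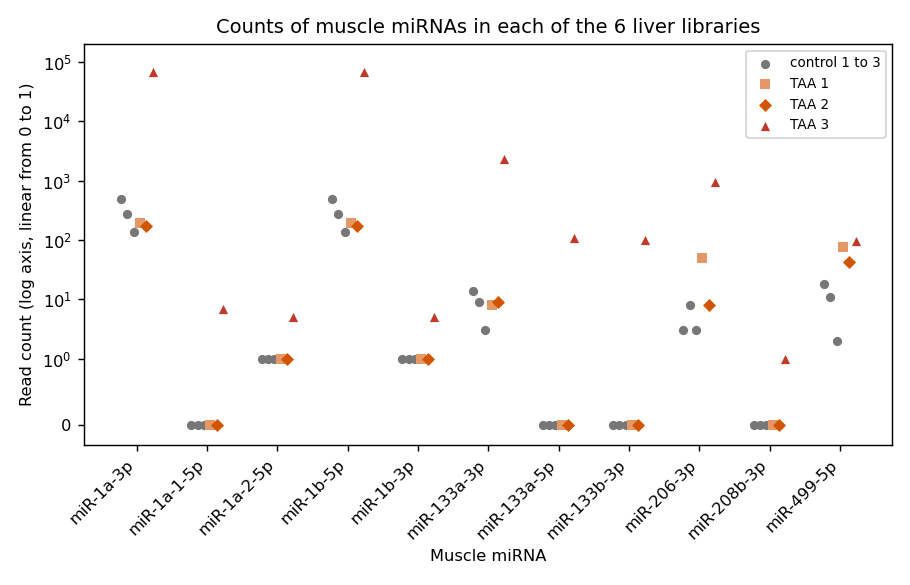
Read counts (y axis, logarithmic above 1) of the 11 muscle miRNA rows with counts (x axis) in the 3 control and 3 TAA libraries, 1 point per library. TAA replicate 3 lies far above the other 5 libraries for miR-1a-3p (67184 counts) and miR-133a-3p (2281 counts), whereas miR-499-5p is raised in all 3 TAA libraries (43 to 97 counts).

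In the tests, this library decided the muscle result. Of the muscle rows 4 were tested, of which miR-1a-3p and miR-1b-5p held nearly the same counts in every library and cannot be separated. Of the 4 rows 1 was an up-regulated differentially expressed miRNA (DEM, defined by a fold change of 2 or more at a false discovery rate, FDR, under 0.05), miR-499-5p, with a log2 fold change of 1.87 (SE 0.57, edgeR FDR 0.0256), beside 25% of all tested rows. On library totals all 4 were called up-regulated, beside 57.4% of all tested rows. miR-1a-3p had a log2 fold change of 5.40 with TMM (FDR 0.0696) and 6.56 with library totals (edgeR FDR 0.0367), and its control and TAA values overlapped. Without TAA replicate 3 its log2 fold change was -1.61 with TMM (edgeR FDR 0.0193), a call in the opposite direction. For miR-133a-3p the value was 5.58 with all libraries (FDR 0.0624) and -0.93 without that replicate (edgeR FDR 0.246). miR-499-5p had 1.57 without it (edgeR FDR 0.0763), still above a fold change of 2, but it was not called because of its FDR. The median of the 4 rows was 5.40 with all libraries and -1.27 without TAA replicate 3.

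Across all rows, 175 were DEMs with TMM, comprising 105 up-regulated (25% of the rows tested) and 70 down-regulated (16.7%). With library totals 245 were called, comprising 241 up-regulated (57.4%) and 4 down-regulated (0.952%). No row was called in opposite directions on the 2 scales. All 105 rows up-regulated with TMM were also up-regulated with library totals, whereas 66 of the 70 down-regulated rows were called with TMM and not with library totals. A further 136 rows were up-regulated on library totals alone, and 109 were called on neither scale. With TMM the control and TAA values did not overlap in 285 of the 420 tested rows, so groups without overlap were the usual case. Without TAA replicate 3, 159 rows were DEMs with TMM (90 up-regulated and 69 down-regulated), and 145 of them were among the 175.

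**Figure D2:**
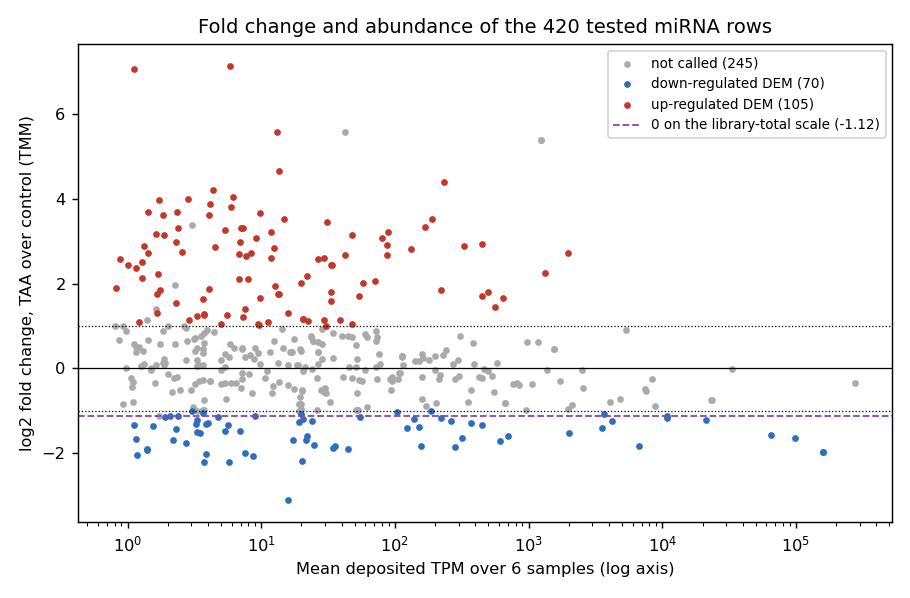
Log2 fold change with TMM (y axis, TAA over control) against the mean deposited TPM over the 6 samples (x axis, logarithmic), 1 point per tested row. Solid and dotted lines mark no change and a fold change of 2, and the dashed line marks where a row without change on the library-total scale would lie (-1.12). The lowest of the 70 down-regulated DEMs is miR-592-5p (-3.12), and the 5 most abundant rows, at the right, are down-regulated or not called.

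The 4 rows that were down-regulated on both scales were miR-592-5p, miR-29c-3p, miR-7219-3p and miR-871-3p. miR-592-5p overlaps an annotated exon of the glutamate receptor gene Grm8 (chr6:27936655-27936750, GRCm38, minus strand). Its TPM was 20.5, 29.8 and 26.3 in the control group and 6.71, 5.62 and 6.87 in the TAA group. The groups were well apart, with log2 fold changes of -3.12 (SE 0.23, edgeR FDR 0.000104) with TMM and -1.99 (edgeR FDR 0.00018) with library totals. miR-29c-3p (chr1:195037547-195037634, plus strand, in an exon of the long non-coding RNA A330023F24Rik) had 30.6, 24.9 and 25.9 TPM in the control group and 10.8, 12.8 and 15.5 in the TAA group. All TAA values were below all control values, and the log2 fold changes were -2.18 (SE 0.19, edgeR FDR 0.000114) and -1.06 (edgeR FDR 0.00225) on the 2 scales. The X-linked miR-871-3p (chrX:66810428-66810504, minus strand), of a cluster best known from testis, was scarce at 5.62, 5.07 and 4.62 TPM in the control group and 2.30, 3.20 and 1.64 TPM in the TAA group. miR-7219-3p had 7.63, 8.28 and 7.54 TPM in the control group and 3.18, 4.08 and 3.71 TPM in the TAA group. Both had log2 fold changes of -2.22 with TMM (edgeR FDR 0.000994 for miR-871-3p and 0.000163 for miR-7219-3p) and -1.10 with library totals (edgeR FDR 0.0128 and 0.00271). Without TAA replicate 3 the value of miR-871-3p on library totals was -0.90, under a fold change of 2, so its call on that scale depended on this library, while the other 3 rows were between -2.04 and -1.11.

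Restricted to DEMs averaging 10 CPM or more (counts per library size, TMM-scaled) and without overlap between the groups, the 10 lowest log2 fold changes were those of miR-592-5p, miR-29c-3p and 8 rows that were down-regulated with TMM alone. These were miR-1843a-3p (-2.08), miR-122-5p and miR-122b-3p (both -1.96), miR-455-3p (-1.91), miR-1948-5p (-1.88), miR-455-5p (-1.86), miR-101b-3p (-1.84) and miR-365-3p (-1.83). With library totals these log2 fold changes were between -0.96 and -0.71, below a fold change of 2, and in each of them all TAA libraries were below all control libraries on that scale too. miR-455, encoded in an intron of the collagen gene Col27a1 (chr4:63256851-63256932, plus strand), was lowered on both arms: miR-455-5p went from 364, 353 and 344 TPM to 294, 140 and 200 TPM, and miR-455-3p from 54.6, 55.7 and 57.7 TPM to 36.7, 26.3 and 34.4 TPM.

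The 5 rows of highest mean abundance were miR-21a-5p, miR-122-5p, miR-122b-3p, miR-148a-3p and miR-192-5p. The 5 largest rows of each library held 79.7%, 80.9% and 80.4% of the counts in the control libraries and 70.9%, 74.7% and 69.2% in the TAA libraries. They were the same 5 rows except in TAA replicate 3, where miR-143-3p (61391 TPM) ranked above miR-192-5p (51282 TPM). miR-122b-3p is annotated on the strand opposite to miR-122 and repeats its counts, so these sums, and all library totals, TPM and shares, count the same reads more than once. Its TPM was 215419, 196959 and 197547 in the control group and 106314, 114319 and 119729 in the TAA group. Log2 fold changes on library totals are therefore higher than they would be without the repeat. Calls of rows near a fold change of 2 on that scale, such as miR-1843a-3p (-0.96), can depend on it. miR-21a-5p, which is raised in many injured tissues, was the only one of the 5 rows of highest mean abundance that was higher in TPM. It had 176925, 221124 and 220713 TPM in the control group and 350086, 378927 and 322706 TPM in the TAA group. All TAA values were above all control values, but the change was below a fold change of 2 (log2 0.77 with library totals, edgeR FDR 0.000501), and with TMM the sign was the opposite (-0.36, SE 0.12, edgeR FDR 0.0359). It was called on neither scale.

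Of the miRNA lists by cell of origin, most hepatocyte rows fell and most epithelial rows rose on the TMM scale, beside backgrounds of 25% up-regulated and 16.7% down-regulated rows. The median log2 fold change over all tested rows was 0.11 on that scale. Of 12 tested hepatocyte rows 10 were down-regulated and 0 up-regulated, with a median of -1.55 (range -1.96 to 0.58). Of 12 tested rows of biliary and other epithelium 10 were up-regulated and 1 down-regulated, with a median of 2.09. Both lists gave the same counts without TAA replicate 3. On library totals, where 57.4% of all tested rows were up-regulated, the hepatocyte list had 0 down-regulated and 2 up-regulated rows and a median of -0.44, whereas the epithelial list kept 10 up-regulated rows and a median of 3.21.

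The hepatocyte list held 42.2%, 40.5% and 39.9% of the counts of the control libraries and 26.3%, 26.5% and 24.9% of the TAA libraries, so the groups did not overlap on either scale. miR-122-5p, which makes up most of the miRNA of hepatocytes, went from 215435, 196982 and 197571 TPM to 106329, 114337 and 119746 TPM. Its log2 fold change was -1.96 (SE 0.06, edgeR FDR 7.23e-07) with TMM and -0.84 (edgeR FDR 8.32e-05) with library totals. The passenger strand miR-122-3p was at 241, 209 and 222 TPM in the control group and 186, 240 and 223 TPM in the TAA group. These ranges overlapped in TPM, although with TMM miR-122-3p was down-regulated (-1.17, edgeR FDR 0.000415).

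miR-148a-3p, an abundant hepatocyte miRNA, had 110308, 119424 and 116769 TPM in the control group and 91931, 81790 and 67945 TPM in the TAA group (log2 fold change -1.64 with TMM, edgeR FDR 0.000114). miR-192-5p had 79078, 74497 and 71797 TPM against 54137, 57933 and 51282 TPM (-1.58, edgeR FDR 1.99e-05). miR-101b-3p, encoded in an intron of Rcl1, had 10076, 7986 and 7013 TPM against 5286, 5311 and 4605 TPM (-1.84, edgeR FDR 0.000114). In each of the 3 the groups did not overlap, which with TMM held for 285 of the 420 tested rows. The exceptions of the list were both arms of miR-802, a hepatocyte miRNA linked to glucose metabolism. miR-802-5p had 7.16, 4.19 and 6.13 TPM in the control group and 13.8, 13.8 and 13.3 TPM in the TAA group, with log2 fold changes of 0.11 with TMM (FDR 0.702) and 1.22 with library totals (edgeR FDR 0.00232). miR-802-3p had 0.58 with TMM (FDR 0.215) and 1.69 with library totals (edgeR FDR 0.0053). Both were thus up-regulated on library totals and called on neither side with TMM.

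**Figure D3:**
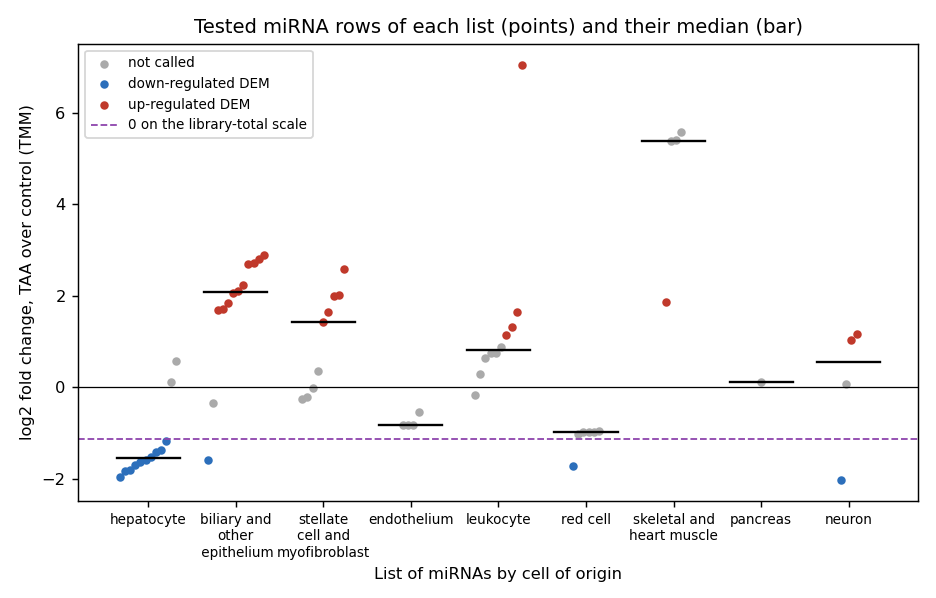
Log2 fold change with TMM (y axis) of each tested row in the 9 lists by cell of origin (x axis), 1 point per row with the median as a bar. The dashed line marks 0 on the library-total scale. Hepatocyte rows lie below 0 except for both arms of miR-802, epithelial rows lie above except miR-203-3p and miR-205-5p, and 3 of the 4 muscle rows, which rest on TAA replicate 3, lie above 5.

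In the epithelial list the miR-200 and miR-183 clusters rose on both scales. The miR-200 family maintains the epithelial state by repressing Zeb1 and Zeb2, and the miR-183 cluster is best known from sensory epithelia. miR-200b-3p had 265, 217 and 284 TPM in the control group and 4577, 3137 and 3253 TPM in the TAA group (log2 fold change 2.73 with TMM, SE 0.20, edgeR FDR 0.000104). miR-200a-3p had 264, 189 and 257 TPM against 2977, 1941 and 2326 TPM (2.24, edgeR FDR 0.00016). Its passenger strand miR-200a-5p rose from 9.24, 8.18 and 13.2 TPM to 214, 140 and 139 TPM (2.90, edgeR FDR 0.00016). miR-429-3p, of the same transcript, had 21.3, 10.7 and 16.8 TPM against 282, 226 and 231 TPM (2.81). The 2 members of the second cluster on chromosome 6, miR-200c-3p (2.06, edgeR FDR 0.000997) and miR-141-3p (2.11, edgeR FDR 0.00172), rose as well. Their TPM was 13.2, 11.2 and 17.5 against 82.9, 123 and 177 for miR-200c-3p and 1.54, 1.66 and 1.31 against 9.28, 12.7 and 20.9 for miR-141-3p.

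From the miR-183 cluster miR-182-5p (1.70), miR-183-5p (1.85) and miR-96-5p (1.71) were up-regulated with TMM at edgeR FDR values of 0.000997, 0.000585 and 0.00159. In these 3 rows TAA replicate 1 was the highest library, with 1061 TPM of miR-182-5p against 671 and 626 in the other TAA libraries and 101 to 118 in the control group. The 2 remaining tested rows behaved otherwise. miR-203-3p, a miRNA of stratified epithelium, fell with TMM (-1.59, edgeR FDR 0.000248), from 1000, 733 and 700 TPM to 615, 557 and 577 TPM, and was not called on library totals (-0.48). miR-205-5p, another miRNA of stratified epithelium, was called on neither scale (-0.34 with TMM, FDR 0.405). The list as a whole took 0.177%, 0.133% and 0.148% of the counts in the control libraries and 1.05%, 0.725% and 0.776% in the TAA libraries.

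The list of stellate cells and myofibroblasts split into the miR-199 and miR-214 rows, which rose, and the miR-143 and miR-145 rows, which changed little with TMM. Of its 9 tested rows 5 were up-regulated and 0 down-regulated with TMM (median 1.44), and 7 were up-regulated on library totals (median 2.55), beside 25% and 57.4% of all tested rows. The 5 were both arms of miR-199a and of miR-214, and miR-199b-5p. miR-199a and miR-214 are made from Dnm3os, an antisense transcript of mesenchymal cells. miR-214-3p had 12.2, 9.65 and 13.97 TPM in the control group and 97.3, 107 and 108 TPM in the TAA group (2.003 with TMM, SE 0.17, edgeR FDR 0.000114). miR-199a-5p had 159, 146 and 183 TPM against 1172, 739 and 950 TPM (1.44, edgeR FDR 0.00102). miR-199b-5p had the highest value of the list, with 5.31, 2.63 and 4.62 TPM against 76.7, 34.9 and 52.6 TPM (2.60, SE 0.38, edgeR FDR 0.00107).

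miR-143-3p and miR-145a-5p are miRNAs of smooth muscle cells and contractile fibroblasts. miR-143-3p was the most abundant row of the list, with 24150, 20738 and 18717 TPM in the control group and 47557, 27524 and 61391 TPM in the TAA group. TAA replicate 2 was the lowest of its group and TAA replicate 3 the highest. The log2 fold change was -0.02 with TMM (FDR 0.944) and 1.10 with library totals (edgeR FDR 0.00722), so it was called up-regulated on that scale alone. Since the list is dominated by this row, its share of the counts, 1.93% to 2.47% in the control group and 2.96% to 6.45% in the TAA group, mostly follows miR-143-3p. miR-145a-5p had 159, 145 and 149 TPM against 309, 208 and 313 TPM, with -0.25 with TMM (FDR 0.272) and 0.87 with library totals. Without TAA replicate 3 the counts of the list with TMM were the same, 5 up-regulated and 0 down-regulated.

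Of 10 tested leukocyte rows 4 were up-regulated and 0 down-regulated with TMM, with a median of 0.82, and 9 were up-regulated on library totals, with a median of 1.93. Over all tested rows 25% were up-regulated with TMM and 57.4% on library totals. These counts with TMM were also found without TAA replicate 3. miR-223-3p, a miRNA of neutrophils and monocytes, had 8.16, 10.8 and 11.3 TPM in the control group and 44.3, 45.4 and 56.2 TPM in the TAA group (1.15 with TMM, edgeR FDR 0.00217). miR-155-5p, which is induced in activated lymphocytes and macrophages, had 2.08, 2.63 and 2.81 TPM against 17.4, 19.2 and 14.7 TPM (1.65, edgeR FDR 0.00102). miR-147-3p, a miRNA induced by Toll-like receptor signalling and encoded in an exon of AA467197, was at 0 counts in all 3 control libraries and had 14, 26 and 24 counts in the TAA libraries (edgeR FDR 0.00353). Against a floor of 3 counts over the control group it was at least 24.0-fold higher with library totals and at least 11.1-fold higher with TMM. The median of the list was the same with this row at its bound. miR-146a-5p, the most abundant row, had 297, 380 and 415 TPM against 739, 774 and 594 TPM, with -0.17 with TMM (FDR 0.452) and 0.95 with library totals.

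No endothelial or red cell row was up-regulated on either scale, beside 25% of all tested rows with TMM and 57.4% on library totals. All 4 rows of endothelium came from miR-126, and of these miR-126a-5p and miR-126b-3p had nearly identical counts. They had log2 fold changes of -0.83 to -0.55 with TMM and 0 were called, and 0 were called on library totals, where the median was 0.31. miR-126a-3p, which is encoded in Egfl7 and promotes vascular signalling, was even among the control mice, with 6063, 6037 and 6006 TPM, and had 8020, 8535 and 10492 TPM in the TAA group. The TAA values were all higher, but the log2 fold change on library totals was 0.58 (edgeR FDR 0.0031), and with TMM the sign was the opposite (-0.55, edgeR FDR 0.00371). miR-126b-5p, with 12.2 to 22.7 TPM in the control group and 16.6 to 29.5 TPM in the TAA group, was at -0.83 with TMM (FDR 0.0466) and became a down-regulated DEM without TAA replicate 3 (-1.08, edgeR FDR 0.0196).

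Of the 6 tested red cell rows 1 was down-regulated with TMM, no more than the 16.7% of all tested rows. This row was miR-451a, the erythroid miRNA that is matured by Ago2 in place of Dicer. It had 709, 539 and 953 TPM in the control group and 507, 297 and 656 TPM in the TAA group. The ranges overlapped in TPM, and the log2 fold change was -1.71 (SE 0.31, edgeR FDR 0.00273) with TMM and -0.59 (FDR 0.127) with library totals. The other 5 rows, from miR-144 and miR-486, lay between -1.01 and -0.96, and 3 of them from miR-486 held nearly the same counts. TAA replicate 3 was the highest TAA library for these rows, with 87.9 TPM of miR-486a-5p against 37.7 and 37.8 in the other TAA libraries and 42.6 to 55.3 in the control group. miR-486 is also abundant in striated muscle, and whether this bears on its value in that library was not tested. miR-144-5p had 34.9 TPM in TAA replicate 3 as well, against 17.9 and 9.92 in the other TAA libraries. Without TAA replicate 3, 5 of the 6 rows were down-regulated, beside 69 of all 434 rows tested in that fit, and the median went from -0.98 to -1.45.

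Lists of organs that a liver sample should not hold gave few counts. The neuron list took 0.0081% to 0.0093% of the counts in the control group and 0.018% to 0.025% in the TAA group. The pancreas list took 0.00015% to 0.00019% of the counts in the control group and 0.00032% to 0.00047% in the TAA group. Its only tested row was miR-375-3p, a miRNA of islets and other endocrine cells, with 1.23, 1.17 and 1.01 TPM against 2.47, 2.76 and 2.84 TPM (0.11 with TMM, FDR 0.76, and 1.23 with library totals, edgeR FDR 0.00456). In the neuron list 4 rows were tested, of which 2 were up-regulated with TMM, miR-129-5p (1.16, edgeR FDR 0.00188) and miR-9-5p (1.03, edgeR FDR 0.0395), each repeated by a row outside the list with nearly the same counts, and 1 was down-regulated, miR-137-3p (-2.02, edgeR FDR 0.00395). Of all tested rows 25% were up-regulated and 16.7% down-regulated on that scale. miR-9-5p was not called without TAA replicate 3 (0.86, FDR 0.11), which left 1 row up-regulated and 1 down-regulated. miR-128-3p was not called with TMM (0.08, FDR 0.658) and was up-regulated on library totals (1.20, edgeR FDR 0.000428). The brain miRNA miR-124-3p was at 0 counts in the control group and at 1, 2 and 0 counts in the TAA group.

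Rows of 1 genomic cluster were not called in opposite directions. Hairpins on the same strand within 10 kb of each other were joined, and 25 clusters had at least 3 tested rows. Only the 376 tested rows placed in 1 cluster or hairpin were used, so mature miRNAs made from hairpins in more than 1 cluster were not counted. In 5 of them all tested rows were up-regulated with TMM, in 4 all were down-regulated, and in 9 none was called. Rows that were not called could have either sign within a cluster. Rows of 1 cluster can come from 1 transcript and are not independent of each other.

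**Figure D4:**
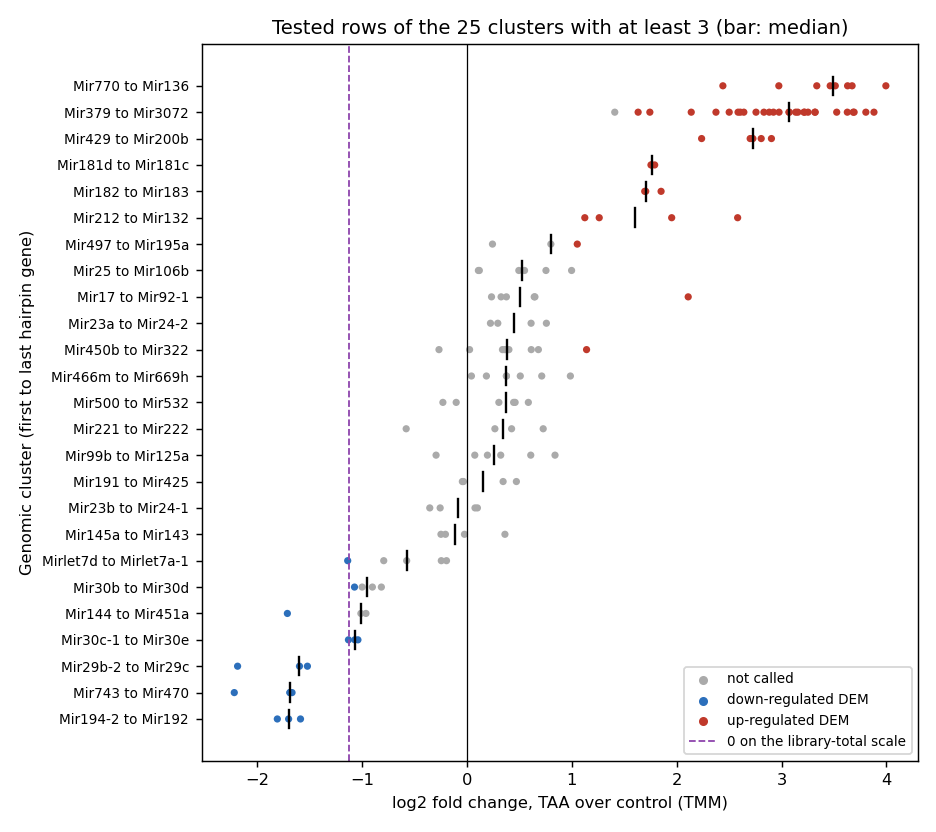
Log2 fold change with TMM (x axis) of the tested rows of the 25 clusters with at least 3 tested rows (y axis, ordered by median), 1 point per row and a bar at the median. The dashed line marks 0 on the library-total scale. The highest medians are those of the clusters from Mir770 to Mir136 (3.49), from Mir379 to Mir3072 (3.07) and from Mir429 to Mir200b (2.73), and the lowest is that of Mir194-2 and Mir192 (-1.70).

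The highest medians were those of 2 clusters in the imprinted region between Meg3 and Mirg on chromosome 12 (chr12:109541001-109749460, GRCm38), which is expressed from the maternal allele, mainly in embryo, placenta, brain and muscle. Of the cluster from Mir770 to Mir136 8 of 8 tested rows were up-regulated (median 3.49), and of the cluster from Mir379 to Mir3072 28 of 29 (median 3.07), beside 25% of all tested rows. The counts were 7 of 8 and 23 of 29 without TAA replicate 3. The miRNAs of the region took 0.0119%, 0.0234% and 0.0166% of the counts in the control libraries and 0.144%, 0.422% and 0.380% in the TAA libraries. TAA replicate 1 was the lowest of the TAA group and still above every control library. miR-127-3p, which lies antisense to Rtl1, had 14.3, 19.2 and 9.95 TPM in the control group and 148, 476 and 344 TPM in the TAA group (3.34 with TMM, SE 0.46, edgeR FDR 0.000967). miR-434-5p had 8.09, 20.7 and 14.3 TPM against 138, 463 and 486 TPM (3.51, SE 0.55, edgeR FDR 0.00142). miR-411-5p, the most abundant of those named, had 32.7, 68.8 and 50.1 TPM against 382, 1095 and 1065 TPM (2.92, SE 0.45, edgeR FDR 0.00137).

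Of the 10 highest log2 fold changes among DEMs of at least 10 CPM without overlap between the groups, 8 belonged to this region, and the 5 not yet named were miR-134-5p (3.53), miR-434-3p (3.46), miR-541-5p (3.21), miR-409-3p (3.16) and miR-381-3p (3.07). In all of these TAA replicate 1 was the lowest TAA library, for example with 10.3 TPM of miR-134-5p against 42.8 and 32.3. Of the 41 tested rows of the region 40 were up-regulated (median 3.14), and 34 were without TAA replicate 3 (median 3.03). Among the 40, miR-136-3p and miR-3071-5p held nearly the same counts and cannot be separated. Outside the region 65 of 379 tested rows were up-regulated and 70 down-regulated, with a median of 0.02.

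The other 2 of the 10 were miR-200a-5p, given above, and miR-218-5p, which is encoded in introns of the axon guidance genes Slit2 (chr5:48223942-48224051) and Slit3 (chr11:35616816-35616925). miR-218-5p had 11.3, 9.45 and 9.45 TPM in the control group and 619, 384 and 376 TPM in the TAA group. The groups were far apart relative to their spread, with log2 fold changes of 4.40 (SE 0.27, edgeR FDR 4.61e-05) with TMM and 5.51 with library totals (edgeR FDR 3.57e-05). Reads of the 2 hairpins cannot be told apart, since they give the same mature sequence.

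Outside this region 4 clusters had all tested rows up-regulated with TMM, beside 25% of all tested rows. They included the Mir429 to Mir200b cluster (5 of 5, chr4:156053905-156055750, median 2.73), the Mir182 to Mir183 cluster (3 of 3, chr6:30165918-30169737, median 1.71), both of the epithelial list, and the Mir181d to Mir181c cluster (3 of 3, chr8:84178716-84178961, median 1.76). The last was the cluster from Mir212 to Mir132, which is induced by CREB and neuronal activity, with 4 of 4 (median 1.61). In the Mir17 to Mir92-1 cluster, a proliferation-linked polycistron driven by Myc, 1 of 6 rows was up-regulated and the median was 0.51, while without TAA replicate 3, when a further row passed the filter, it was 2 of 7 and the median was 0.95.

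Clusters with all tested rows down-regulated with TMM were Mir194-2 with Mir192 (chr19:6264643-6264932, 3 of 3, median -1.70), Mir743 to Mir470 (chrX:66776757-66814025, 4 of 4, median -1.69), Mir29b-2 with Mir29c (chr1:195037040-195037634, 3 of 3, median -1.59) and Mir30c-1 with Mir30e (chr4:120769534-120772697, 3 of 3, median -1.07), the last in an intron of Nfyc. Of all tested rows 16.7% were down-regulated. miR-30c-5p, made from Mir30c-1 and also from Mir30c-2 outside the cluster, was left out of this count and was not called (-0.96). The rows of the X-linked cluster were scarce, with miR-881-3p at 28.8, 24.9 and 24.3 TPM against 22.4, 13.8 and 16.3 TPM. On library totals the medians were -0.58, -0.57, -0.46 and 0.05, and of the 13 rows of these clusters the down-regulated ones were miR-871-3p and miR-29c-3p. Without TAA replicate 3 the number of down-regulated rows was 3, 3, 3 and 1 in the same order, so that for the Mir30c-1 with Mir30e cluster it depended on that library.

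The seed families were described over the 356 tested rows with a RefSeq mature sequence, which gave 12 families with at least 3 tested rows. None had calls in both directions with TMM, 4 had none, and 1 had all its rows called, beside 25% up-regulated and 16.7% down-regulated among all tested rows. That one was the AAUACUG family of miR-200b-3p, miR-200c-3p and miR-429-3p, with a median of 2.73. The other seed of the miR-200 family, AACACUG, had 2 rows, both up-regulated, with a median of 2.17. Next was the ACAUUCA family (median 1.45), with miR-181b-5p, miR-181c-5p and miR-181d-5p up-regulated and miR-181a-5p below a fold change of 2 (0.60). The third was the AGCAGCA family of miR-15 and miR-16, cell cycle repressors, with a median of 0.69. Of its 6 rows 1 was up-regulated, miR-497a-5p, and the members differed in sign, from -0.85 to 1.05. Without TAA replicate 3 miR-15a-5p was at -0.76 and miR-16-5p at -0.54, whereas miR-15b-5p was at 0.89.

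miR-181a-5p was the abundant member of its family, at 180, 167 and 191 TPM in the control group and 547, 494 and 728 TPM in the TAA group, whereas miR-181d-5p had 8.86, 6.72 and 7.94 TPM against 77.9, 47.2 and 50.8 TPM (1.79 with TMM, edgeR FDR 0.00102). The p53-induced miR-34 family had 2 tested rows, and both rose. miR-34a-5p went from 15.3, 9.74 and 10.6 TPM to 160, 176 and 154 TPM (2.66, SE 0.20, edgeR FDR 0.000104), and miR-34c-5p from 4.70, 5.94 and 6.33 TPM to 75.2, 62.8 and 97.4 TPM (2.67, edgeR FDR 0.000114). They are encoded on chromosomes 4 and 9, so this pair did not come from 1 transcript.

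The lowest seed families were AGCACCA (miR-29, median -1.24, 2 of 3 rows down-regulated), GUAAACA (miR-30, median -1.07) and UAUACAA (3p strands of let-7, median -0.74, 1 of 3). The down-regulated rows numbered 3 of 3 for AGCACCA, 1 of 3 for GUAAACA and 0 of 3 for UAUACAA without TAA replicate 3. In the miR-29 family the level and the change of the members differed. miR-29a-3p was the most abundant with 945, 862 and 920 TPM in the control group and 897, 959 and 1161 TPM in the TAA group, which overlapped. With TMM it had -0.98 (edgeR FDR 0.000612), just under a fold change of 2, and on library totals 0.15 (FDR 0.35). miR-29b-3p had 29.8, 22.5 and 22.9 TPM against 25.3, 20.2 and 23.7 TPM, with -1.24 (edgeR FDR 0.00122) and -0.12. Only miR-29c-3p, given above, was down-regulated on both scales. Summed over the family the share of counts was 0.0961% ± 0.0048 (SD, n = 3) in the control group and 0.104% ± 0.014 in the TAA group.

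The miR-30 family, which is abundant in hepatocytes and other epithelial cells, had 5 rows by name, of which miR-30a-5p (-1.22) and miR-30e-5p (-1.07) were down-regulated with TMM. The other 3 were between -0.96 and -0.81. miR-30e-5p was at -0.99, just under a fold change of 2, without TAA replicate 3. On library totals 0 of the 5 were called and the values were between -0.10 and 0.31. The let-7 family, repressors of Lin28 and Ras, had 9 rows with 1 seed (GAGGUAG) and a median of -0.34 with TMM (0.78 with library totals). let-7g-5p was the only one down-regulated (-1.13, edgeR FDR 0.000104), and in TPM it was even, with 10497, 10744 and 11240 TPM in the control group and 10431, 11296 and 10531 TPM in the TAA group. let-7i-5p lay at the other end, with 2016, 2066 and 2235 TPM against 9698, 7657 and 8327 TPM (0.90 with TMM, just under a fold change of 2, and 2.02 with library totals, edgeR FDR 3.57e-05). In the miR-17 family, with the seed AAAGUGC, 0 of 4 rows were called with TMM (median 0.44), and all 4 were up-regulated on library totals.

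The arms of a hairpin were compared as the ratio of the 5p to the 3p count within a sample, which does not depend on the scale. Arms were paired by name, and 1 name can cover more than 1 hairpin, so the hairpins counted here are name pairs. Of 333 hairpins with both arms listed, 110 had a mean of at least 10 counts on each arm. None changed at an FDR below 0.05 with a change of at least 1.5-fold in limma (0% of those tested), and the lowest FDR was 0.0511. At an unadjusted p below 0.05 there were 16, in 24 the groups did not overlap, and the median absolute change was 0.32 on the log2 scale. Of the 107 hairpins with both arms tested by edgeR, 17 were up-regulated on both arms, 14 down-regulated on both, 15 called on 1 arm, 61 on neither and 0 in opposite directions, and in 89 both arms had the same sign.

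**Figure D5:**
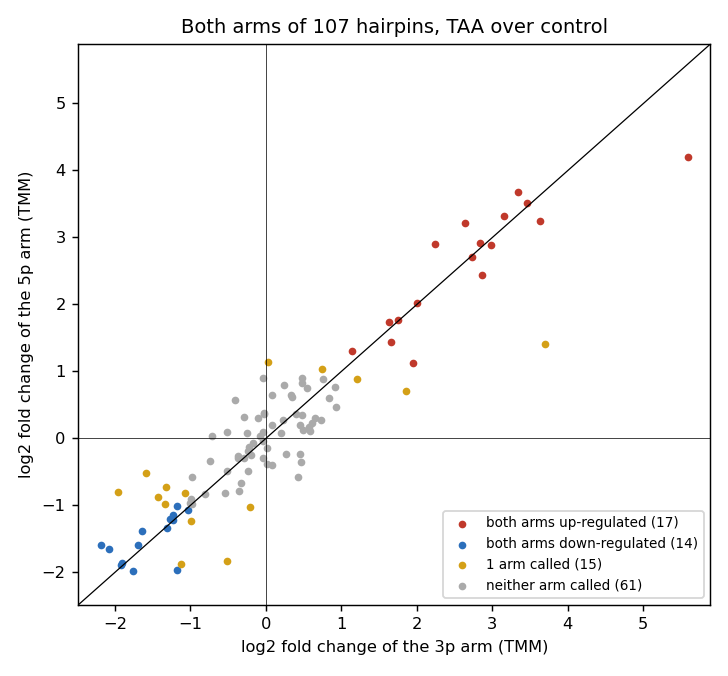
Log2 fold change with TMM of the 5p arm (y axis) against that of the 3p arm (x axis) for 107 hairpins with both arms tested, 1 point per hairpin, with the line of equal change. The 17 hairpins up-regulated on both arms and the 14 down-regulated on both lie along the line, and no hairpin is called in opposite directions.

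The 5 lowest FDR values, from 0.0511 to 0.0559, were those of miR-203, miR-122b, miR-122, miR-203b and miR-221. For miR-203 the log2 ratio of 5p to 3p was -5.81, -5.52 and -5.58 in the control group and -4.43, -4.67 and -4.69 in the TAA group, a change of 1.04 (SE 0.17, limma FDR 0.0511). The main arm miR-203-3p fell with TMM (-1.59) while miR-203-5p had -0.52 (FDR 0.0514). For miR-122 the log2 ratio was 9.80, 9.88 and 9.80 against 9.16, 8.90 and 9.07, a change of -0.79 (SE 0.15, limma FDR 0.0559). In both hairpins the arm that makes up most of the counts had the lower share in the TAA group, and the groups did not overlap. The ratios of miR-122b and miR-203b are not independent of these, since miR-122b-3p nearly repeats miR-122-5p and miR-203b-3p nearly repeats miR-203-5p (17 pairs of rows in the table differed by less than 2% of their total), while their other arms are rows of their own.

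For miR-221, a miRNA of proliferating hepatocytes and stellate cells, the log2 ratio of 5p to 3p was -1.83, -1.44 and -1.39 in the control group and -2.30, -2.67 and -2.80 in the TAA group, a change of -1.04 (SE 0.21, limma FDR 0.0559). miR-221-3p had 130, 111 and 131 TPM in the control group and 411, 336 and 338 TPM in the TAA group, and miR-221-5p had 36.6, 41.0 and 49.95 TPM against 83.4, 52.9 and 48.3 TPM. The higher arm differed between the groups in 7 hairpins, all with mean log2 ratios within 0.51 of 0 in both groups. One of them was miR-199a, whose arms, paired by name, were about equal in the control group (mean log2 ratio 0.0038) and in the TAA group (-0.22).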

How the data were processed

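From TRIzol RNA the authors made small RNA libraries with a ligation kit, mapped the single-end reads to mm10 and miRBase with Bowtie (version 1.3.0) and deposited raw read counts per mature miRNA. They also deposited TPM, which equalled the count over the column sum, rescaled, with no term for length. The handling of strand and of reads matching several miRNAs is not given in the sources used here. Library totals are given in the text, and precision was limited by 3 mice per group.

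Counts were tested with edgeR (version 4.0.16, R 4.3.3), with filterByExpr (minimum count 10), TMM factors and its quasi-likelihood test, on the 6 samples without covariates, where the study used DESeq2. P-values were adjusted by the Benjamini-Hochberg method (FDR) over the 420 rows, and DEMs were rows with a fold change of 2 or more and an FDR under 0.05. The same fit was run with library totals. The SE was the log2 fold change over the square root of F. Arm ratios, log2((5p + 0.5)/(3p + 0.5)), were tested with limma (version 3.58.1). The scripts were tested on simulated data.

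Named miRNAs are the 10 highest and 10 lowest DEMs of at least 10 CPM without overlap, those down-regulated on both scales, the 5 most abundant, all muscle rows with counts, the most abundant, highest and lowest row of each list, the 3 highest and lowest clusters and seed families, and 6 families by name. Other members named were chosen after their values were seen. The members and lists were chosen with earlier results of these data known. Alternatives were DESeq2 (version 1.42.0), other scalings, filters and thresholds, limma on TPM, merged near-identical rows, the replicate block and removal of each replicate. Hairpin positions are from GENCODE M21 (GRCm38, the build of mm10), and 405 of the 420 tested rows had one. RefSeq sequences matched 356 of the 420.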

Additional observations from a re-analysis of the deposited data

How the results depend on the processing

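The count of 175 DEMs went to 85 with a filter of at least 10 CPM and to 104 with glmTreat, whose null is a change of up to 2-fold, and was 158 to 187 without single replicates, 209 without a filter and 181 with DESeq2. With the same filter of 10 CPM the 245 DEMs on library totals went to 131, the 105 up-regulated on both scales to 55, and the 4 down-regulated on both to 2. Fewer rows enter that filter (239). The split of up-regulated against down-regulated DEMs was 105 to 70 with TMM, 86 to 95 with upper quartile factors, 211 to 2 and 240 to 4 with limma on log2(TPM + 1) and log2(TPM + 0.1), and 226 to 6 with library totals that leave out miR-122-5p, miR-122b-3p and miR-21a-5p. Changed arm ratios numbered 0, but 8 with a pseudocount of 5 counts, 5 with at least 50 counts on each arm and 2 with limma's trend and robust options, and 0 without near-identical rows, an alternative added after seeing the data.

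Among the rows named for abundance, size of change or cell of origin, the sign on library totals was the opposite for miR-21a-5p (0.77), miR-143-3p (1.10), miR-145a-5p (0.87), miR-126a-3p (0.58), miR-126b-5p (0.30), miR-146a-5p (0.95) and miR-144-5p (0.17). miR-29a-3p (0.15), members of the miR-30 family and the median of the let-7 family (0.78) also changed sign. Leaving out single replicates gave ranges that crossed 0 for miR-143-3p (-0.25 to 0.25), miR-1a-3p (-1.61 to 5.99), miR-133a-3p (-0.93 to 6.18) and miR-128-3p (-0.0053 to 0.21). The cause was not tested, except that the negative values of miR-1a-3p and miR-133a-3p are those without TAA replicate 3. No pairing of the mice by replicate number was seen, although 3 pairs are too few to exclude one. Correlations of same-numbered deviations were 0.053, 0.17 and -0.21, and 1 of 3 control samples correlated best with its own number. With the replicate block 178 rows were DEMs (102 up-regulated and 76 down-regulated), 170 of them among the 175, and miR-1a-3p was at -0.31.

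Groups of 3 cannot pass a p of 0.1 in an exact permutation test of a single value, so no such test was used. Rows under the count filter (720 of 1140) were not tested, and for them an absence of a call says nothing about change.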

Other observations

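TAA replicate 1 also had rows of its own, which were singled out after their values were seen. miR-196a-5p, encoded in the Hox clusters, had 76 counts there against 1 and 1 in the other TAA libraries and 1, 3 and 2 in the control libraries. Its relative miR-196b-5p had 115 counts against 1 and 6 in the other TAA libraries and 3 to 4 in the control libraries. miR-452-5p had 70 counts against 3 and 0, and 1 to 7 in the control libraries. These 3 rows did not pass the filter on low counts and were not tested. The other rows at least 3-fold above the next library were miR-1983 (168 counts against 14 and 11), miR-92b-3p (98 against 13 and 18), which were tested and not called with TMM, and miR-18a-5p of the Mir17 cluster (259 against 67 and 64, and 27, 8 and 11 in the control libraries), which was an up-regulated DEM (log2 fold change 2.11 with TMM). None of the 6 is in the muscle list, and their source was not tested.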
